A study of Arabidopsis thaliana with 54 samples.

Results

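The FERRIC REDUCTASE OXIDASE (FRO) family of Arabidopsis thaliana was taken by gene identifier, and all 8 genes, FRO1 to FRO8, were found among the 33610 gene identifiers of each count file. RNA was sequenced from 54 libraries of roots and rosettes (18 groups, n = 3 libraries each) of the wild-type accession Col-0 and of spl7 (insertion line SALK_109908c), which carries a disrupted gene for the copper-responsive transcription factor SPL7. All plants grew in aerated hydroponic solution, 16 to a container, with 25 µM iron before treatment, and were then held for 3 days in 1 of 4 solutions. The control held 25 µM iron with 0.5 µM copper, and the others lacked copper, lacked iron or were free of both metals, with the remaining metal as in the control. Col-0 had been pretreated with 0.1 µM copper. The 4 main spl7 groups of each organ had a rescue pretreatment of 2.5 µM copper. A further spl7 control, titled Ex, had the same 0.1 µM copper pretreatment as Col-0 and is called here the low-copper spl7 control. Any other comparison of spl7 with Col-0 is therefore also one of pretreatments, and the 2 cannot be told apart. The labels call the libraries biological replicates without saying whether they came from separate containers. The p values thus set group differences against the spread between these libraries only, and part of that spread may be technical. If libraries of a group shared a container, that spread may understate the variation between containers.

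FRO proteins are membrane flavocytochromes that pass electrons from cytosolic NADPH across a membrane to chelated ferric iron or to cupric copper, because the reduced ions are the forms that the transporters take up. FRO2 is the main ferric reductase of the root surface and works with the ferrous transporter IRT1 and the proton pump AHA2 under the bHLH factor FIT. FRO4 and FRO5 are root surface cupric reductases placed under SPL7, which binds GTAC core motifs. FRO3 and FRO8 proteins have been placed in mitochondria, FRO7 in the chloroplast envelope, where it serves chloroplast iron supply, and FRO6 in the plasma membrane of green tissue. FRO1 is the least studied member.

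In the RefSeq annotation of TAIR10.1 (the submitters' processing notes name TAIR10, and the count files carry no coordinates), 6 of the 8 genes lie as 3 neighbouring pairs of protein-coding genes on the same strand. FRO2 (AT1G01580, chr1:208995-213082) and FRO1 (AT1G01590, chr1:214150-217734) lie 1067 bases apart on the plus strand. On the minus strand FRO4 (AT5G23980, chr5:8097978-8101330) and FRO5 (AT5G23990, chr5:8105461-8108642) lie 4130 bases apart, and FRO6 (AT5G49730, chr5:20201037-20204595) and FRO7 (AT5G49740, chr5:20205302-20208777) lie 706 bases apart. FRO3 (AT1G23020, chr1:8149868-8153796, minus strand) and FRO8 (AT5G50160, chr5:20415764-20418847, plus strand) stand alone. Coding sequences of FRO6 and FRO7 were identical at 93.9% of aligned bases and those of FRO4 and FRO5 at 92.6%, ahead of FRO1 and FRO3 (85.6%) and FRO1 and FRO2 (74.1%). Of all 50-base words in the transcripts, 15.6% of those of FRO6 were also in FRO7, and 5.11% of those of FRO4 were also in FRO5, while FRO1, FRO2 and FRO3 shared none with each other. Reads of FRO6 and FRO7, and of FRO4 and FRO5, could thus in part have been assigned to the other gene, and values within these 2 pairs are uncertain to that extent.

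The 250 bases before the annotated starts of these 2 neighbouring pairs are shown because both members of each pair moved together in the results, FRO4 and FRO5 in roots and FRO6 and FRO7 in rosettes. The sequences are from RefSeq, TAIR10.1, minus strand, written 5′ to 3′ in the direction of transcription (FRO4 chr5:8101331-8101580, FRO5 chr5:8108643-8108892, FRO6 chr5:20204596-20204845, FRO7 chr5:20208778-20209027). Capitals mark TATAAA on either strand (TTTATA on the other) in FRO4 and FRO5, and GTAC, which reads the same on both strands, in FRO6 and FRO7.
FRO4: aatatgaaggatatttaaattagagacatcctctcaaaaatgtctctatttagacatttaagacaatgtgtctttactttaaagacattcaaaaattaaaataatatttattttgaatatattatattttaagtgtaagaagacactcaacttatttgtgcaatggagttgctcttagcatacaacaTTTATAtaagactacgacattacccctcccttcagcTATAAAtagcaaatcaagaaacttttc
FRO5: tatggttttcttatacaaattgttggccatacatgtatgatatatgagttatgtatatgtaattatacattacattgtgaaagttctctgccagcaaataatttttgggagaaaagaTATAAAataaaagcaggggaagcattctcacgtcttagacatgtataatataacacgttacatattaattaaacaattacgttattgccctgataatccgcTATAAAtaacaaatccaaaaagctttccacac
FRO6: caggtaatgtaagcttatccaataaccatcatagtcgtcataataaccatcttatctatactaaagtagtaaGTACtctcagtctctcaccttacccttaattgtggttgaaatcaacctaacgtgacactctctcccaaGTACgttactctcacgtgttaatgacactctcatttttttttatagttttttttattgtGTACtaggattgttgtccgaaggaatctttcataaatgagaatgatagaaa
FRO7: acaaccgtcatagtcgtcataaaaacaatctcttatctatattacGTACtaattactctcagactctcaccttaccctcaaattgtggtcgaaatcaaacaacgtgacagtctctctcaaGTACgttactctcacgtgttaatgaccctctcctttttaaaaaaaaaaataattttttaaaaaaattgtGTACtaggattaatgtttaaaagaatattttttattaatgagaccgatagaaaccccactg
The FRO6 and FRO7 windows were identical at 85.0% of aligned bases, against 60.4% for FRO4 and FRO5 and 61.7% for FRO1 and FRO2. FRO6 and FRO7 each held 3 GTAC motifs, starting 178, 110 and 51 bases before the start in FRO6 and 205, 130 and 61 bases before it in FRO7. Of 27443 annotated promoters of this length, 34.3% held at least 1 GTAC and 1.44% held at least 3. Over 500 bases FRO6 and FRO7 still had 3, as many as 6.99% of promoters hold, and over 1000 bases they had 5 and 4, which 5.07% and 13.1% of promoters reach. The gap between the 2 genes is 706 bases, so the 1000-base window of FRO6 reaches into the FRO7 gene. Each also held 1 CACGTG, which 6.49% of promoters hold at least once. FRO4 and FRO5 held no GTAC in 250 or in 500 bases. Over 1000 bases FRO4 had 1 and FRO5 had 3, where the mean of all promoters was 1.86. TATAAA occurred 2 times in each of FRO4 and FRO5, and at least as often in 17.8% of promoters. FRO2 had 1 GTAC in its 250 bases, and FRO1, FRO3 and FRO8 had none. Over 500 and 1000 bases FRO2 had 3 and 5, which 6.99% and 5.07% of promoters reach, as for FRO6. FRO1 had none over 500 bases and 3 over 1000, which 28.7% of promoters reach. FRO3 and FRO8 had none in either longer window. A match describes letters and is not a binding site.

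Library totals ranged from 9.25 to 17.28 M counts in roots and from 11.69 to 20.06 M in rosettes. SPL7 averaged 61.8 to 72.5 CPM (counts scaled to a common, TMM-normalised library size) across Col-0 root groups and 24.2 to 26.2 across spl7 root groups, and 24.4 to 30 against 10.4 to 16.3 in rosettes, so the labelled genotypes were distinct. The summed level of 9 root markers (root hair and endodermis genes) was 247 to 694 CPM in roots and 0.265 to 1.23 in rosettes. The sum of 9 leaf markers was 34700 to 83700 CPM in rosettes and 31.6 to 391 in roots. Replicate 3 of iron-free spl7 roots stood apart from the other 2 libraries of its group. Changes called in that group against its control, for members and for the partner genes named, are given with and without it. A called gene is one whose p in the edgeR quasi-likelihood test, after Benjamini-Hochberg adjustment over all genes tested, was below 0.05, and log2 changes are given ± standard error. After the filter on low counts 6 members were tested in roots (not FRO1 and FRO7) and 7 in rosettes (not FRO5). FRO5 passed in roots through the copper-free Col-0 group alone. In bulk samples fewer cells of a type and less RNA per cell cannot be told apart.

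Of the 8 members, 2 were higher in roots and 5 higher in rosettes in the Col-0 control. The count is close to that of all genes, since 77.9% of the 22078 genes tested were called in this comparison. Per kilobase of annotated exon, the root level was highest for FRO2 (81.1 ± 68.1 CPM per kb, SD, n = 3), followed by FRO3 (40.6 ± 3.27), FRO4 (3.9 ± 1.01), FRO8 (0.864 ± 0.105) and FRO6 (0.406 ± 0.125). The first 2 cannot be ordered, because FRO2 in single libraries ran from below to above FRO3. In rosettes the order was FRO6 (131 ± 3.28 CPM per kb), then FRO7 (50.3 ± 5.95) and FRO8 (41.5 ± 2.71), FRO3 (8.8 ± 4.2), FRO4 (4.96 ± 0.689), FRO2 (1.02 ± 0.29) and FRO1 (0.816 ± 0.446). Single libraries of FRO7 and FRO8 overlapped, as did those of FRO2 and FRO1, so these neighbours cannot be ordered, and the SD ranges of FRO3 and FRO4 touched.

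**Figure D1:**
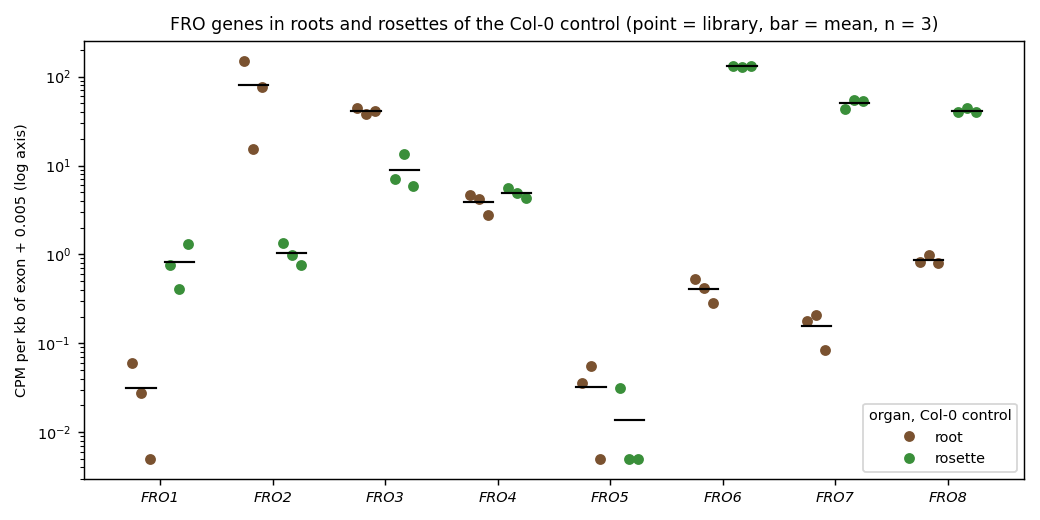
Level of each FRO gene in the 3 root and 3 rosette libraries of the Col-0 control, in CPM per kb of annotated exon with 0.005 added (log axis); points are libraries and bars are means. FRO2 and FRO3 stood highest in roots and FRO6, FRO7 and FRO8 in rosettes, while FRO4 was at similar levels in both organs and FRO5 near 0.

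FRO6, FRO7 and FRO8 were far higher in rosettes than in roots. Their log2 differences between root and rosette were -8.77 ± 0.33, -8.75 ± 0.33 and -6.02 ± 0.25 (adjusted p of 1.8e-24 or below). The ferric reductase gene FRO2 was higher in roots by 5.84 ± 1.12 (adjusted p = 1.15e-05) and FRO3 by 1.76 ± 0.28 (adjusted p = 5.23e-07). FRO4 was lower in control roots than in control rosettes by a smaller step (-0.79 ± 0.27, adjusted p = 0.0067), and this call was lost without replicate 3 of the control roots (-0.60, adjusted p = 0.0584). FRO1 was also called higher in rosettes (log2 difference -5.25). It had 3 counts in the 3 control root libraries and 108 in the rosette libraries, a ratio of 32.9 (95% interval 11 to 162; the intervals of count ratios here cover counting error only). Across all 27 root libraries FRO1 stayed between 0 and 0.326 CPM. In roots FRO6 averaged 0.689 to 2.08 CPM and FRO7 0.176 to 0.819 CPM, and both were highest in replicate 1 of the low-copper spl7 control (3.29 and 1.91 CPM), where the summed leaf markers were also at their highest root value, 391 CPM. The part of leaf RNA in these root values was not tested.

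In roots, removal of copper from Col-0 raised the cupric reductase genes FRO4 and FRO5, 2 of 6 tested, where 0.0733% of 20462 genes were called. FRO5 was among the 6 only through its level in the copper-free group, so counts that hold it are descriptions, and its p values are given from the fit with no low-count filter. FRO4 stood at 156, 82.8 and 114 CPM in the 3 copper-free libraries and at 11, 9.92 and 6.46 CPM in the control. The groups did not overlap, and the lowest copper-free library lay far above the highest control library. The log2 change was 3.69 ± 0.30 (adjusted p = 2.49e-07).

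FRO5 had 16.3, 7.62 and 12.7 CPM without copper, from 222, 70 and 142 counts. The 3 control libraries held 3 counts together. FRO5 RNA was thus close to undetected with copper and plain without it, at a ratio of 185 (interval 62.7 to 898; adjusted p = 1.28e-05 with no filter; DESeq2 gave no adjusted p for FRO4 or FRO5 here). In the same copper-free libraries FRO4 had 9.6, 10.9 and 8.96 counts for each count of FRO5.

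Both genes lost most of this rise when iron was removed as well. In Col-0 roots free of both metals FRO4 was at 15.6, 10.6 and 7.88 CPM, a range that overlapped the control, and FRO5 had 4 counts in all. Against the copper-free group FRO4 was lower (log2 change -3.37 ± 0.30, adjusted p = 2.77e-07). FRO5 was higher in the copper-free group at a ratio of 134 (interval 51.8 to 493; adjusted p = 4.48e-06 in edgeR with no filter; adjusted p = 0.219 in the DESeq2 Wald test). These 2 were the members called, where 5.66% of all genes were. The test of the difference between the copper response with and without iron gave -2.13 ± 0.45 for FRO4 (adjusted p = 0.0121; 1 of 6 members called, 2.89% of all genes).

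Iron removal alone lowered FRO4. The 3 iron-free Col-0 root libraries had 3.57, 3.31 and 4.73 CPM, all below the lowest control library. The change was -1.24 ± 0.34 (adjusted p = 0.0137), and the call was lost without replicate 2 of the control (-1.17, adjusted p = 0.0608) or replicate 2 of the iron-free group (-1.15, adjusted p = 0.0642). With iron absent, copper removal raised FRO4 by 1.55 ± 0.33 (adjusted p = 0.00475). FRO4 in Col-0 roots thus ordered as copper-free, then the control together with the group free of both metals, which overlapped, then iron-free.

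In spl7 roots FRO4 and FRO5 were nearly silent with iron present. FRO4 ran from 0 to 0.553 CPM over the 9 libraries of both controls and the copper-free group, and FRO5 had no count in any of them. In copper-free roots Col-0 had 4165 counts of FRO4 and spl7 had 14, a ratio of 312 after scaling (interval 186 to 572; log2 difference -8.20 ± 0.46, adjusted p = 3.99e-11). FRO5 was at least 50.6-fold higher in Col-0, against a floor of 3 counts per library in spl7 (adjusted p = 5.02e-06 in edgeR with no filter; adjusted p = 0.103 in the DESeq2 Wald test). These were the members called, where 2.49% of genes were. After the same pretreatment FRO4 was also lower in the spl7 control than in the Col-0 control (-5.25 ± 0.56, adjusted p = 2.15e-06; 1 of 6 members, 13.3% of genes).

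Without iron the low level of FRO4 in spl7 roots was lifted. The libraries had 1.38, 3.54 and 1.47 CPM, or 94 counts against 7 in the spl7 control (ratio 12.4, interval 5.78 to 31.7), with no overlap. The log2 change was 3.56 ± 0.73 (adjusted p = 0.00283), opposite in sign to that in Col-0, and the test of the difference between the genotypes' iron responses gave 4.80 ± 0.79 (adjusted p = 0.00111; 1 of 6 members called, 7.02% of genes). Without replicate 3 of iron-free spl7 the 2 values were 3.73 ± 0.80 (adjusted p = 0.000679) and 4.98 ± 0.85 (adjusted p = 0.000194). In spl7 roots free of both metals FRO4 was at 1.08, 1.53 and 0.829 CPM, above every spl7 control library, with a log2 change of 2.65 ± 0.83 (adjusted p = 0.184). There it was lower than in Col-0 (log2 difference -3.30 ± 0.40, adjusted p = 0.000116; 1 of 6 members, 0.357% of genes). Iron-free FRO4 in spl7 overlapped the Col-0 values of 3.31 to 4.73 CPM in 1 of 3 libraries (-0.84 ± 0.40, adjusted p = 0.194; -0.66 ± 0.43, adjusted p = 0.278, without replicate 3).

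Copper removal in spl7 roots called no member of 6 (0.21% of genes were called; no member had an unadjusted p below 0.05, and the DESeq2 Wald test called none). The log2 change of FRO4 was 1.13 ± 1.07 there, and the difference from the response of Col-0 was -2.56 ± 1.34 (adjusted p = 0.41). These spl7 values rest on 7 counts in the control and 14 in the copper-free group.

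**Figure D2:**
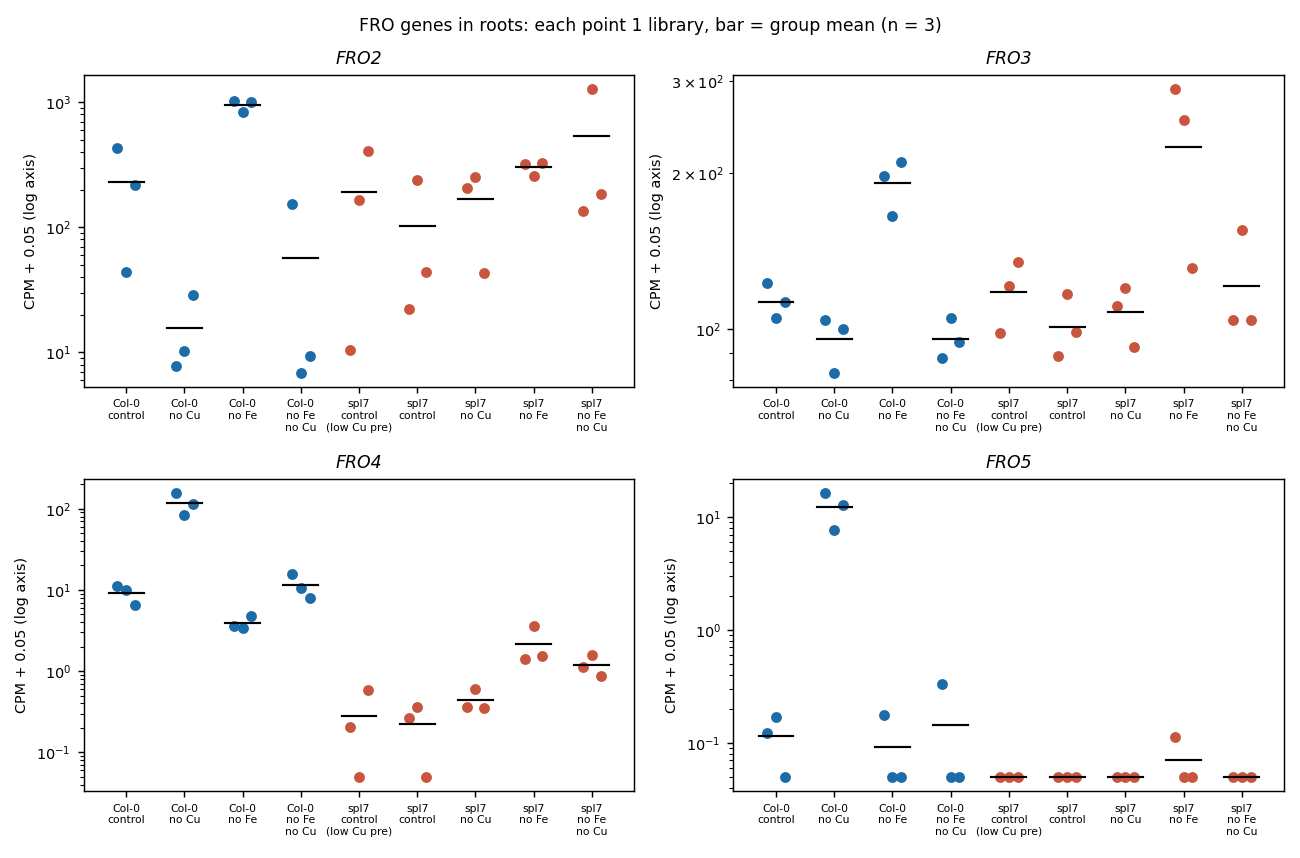
FRO2, FRO3, FRO4 and FRO5 in each of the 27 root libraries, in CPM with 0.05 added (log axis), by genotype and treatment; blue is Col-0, red is spl7, points are libraries and bars are means. FRO4 at 82.8 to 156 CPM and FRO5 at 7.62 to 16.3 CPM stood out in copper-free Col-0, while FRO2 scattered widely within most groups.

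FRO2, the ferric reductase of root iron uptake, varied widely between libraries of the same group in roots. Control Col-0 roots had 432, 43.9 and 217 CPM, copper-free roots 7.69, 10.3 and 28.6 CPM, iron-free roots 1030, 830 and 998 CPM, and roots free of both metals 154, 6.86 and 9.28 CPM. Iron-free libraries all stood above, and copper-free libraries all below, every control library. Neither change passed the test (2.05 ± 1.15, adjusted p = 0.205, and -3.89 ± 1.29, adjusted p = 0.202), and the control libraries alone ran from 43.9 to 432 CPM. The DESeq2 Wald test called the second change.

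The only FRO2 call in roots was against the iron-free group. Removing copper as well as iron left FRO2 lower (log2 change -4.07 ± 1.26, adjusted p = 0.0455), with all 3 libraries below the iron-free ones. This call sat at the threshold. It was lost in 5 of 7 fits with a library left out, namely without any 1 of the 3 iron-free libraries or without replicate 2 or 3 of the group free of both metals, where the change was -4.15 to -3.54 and the adjusted p up to 0.168.

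In spl7 roots FRO2 had 22.3, 239 and 43.9 CPM in the control and 10.5, 164 and 404 CPM in the low-copper control. Copper-free spl7 had 205, 253 and 43.4 CPM, iron-free spl7 320, 258 and 326 CPM, and spl7 free of both metals 136, 1280 and 185 CPM. The iron-free libraries all exceeded those of the main control and of the copper-free group, and the other spl7 groups overlapped. No FRO2 change in spl7 roots, nor between genotypes, passed the test. Where Col-0 free of copper stayed at or below 28.6 CPM, the lowest copper-free spl7 library had 43.4 CPM (3.43 ± 1.28, adjusted p = 0.128).

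The scatter of FRO2 was shared with IRT1. Over the 27 root libraries the 2 genes had a Pearson r of 0.981 and a Spearman rho of 0.988 on log2(CPM + 1), the closest likeness to FRO2 among the genes compared, ahead of MTPA2 (r = 0.959), which encodes a vacuolar metal tolerance protein. These points share library and depth, and group differences contribute to the value, which is a description. Within the control group the order was the same for both genes, with IRT1 at 566, 56.7 and 305 CPM, and in spl7 free of both metals IRT1 had 191, 1290 and 254 CPM.

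**Figure D3:**
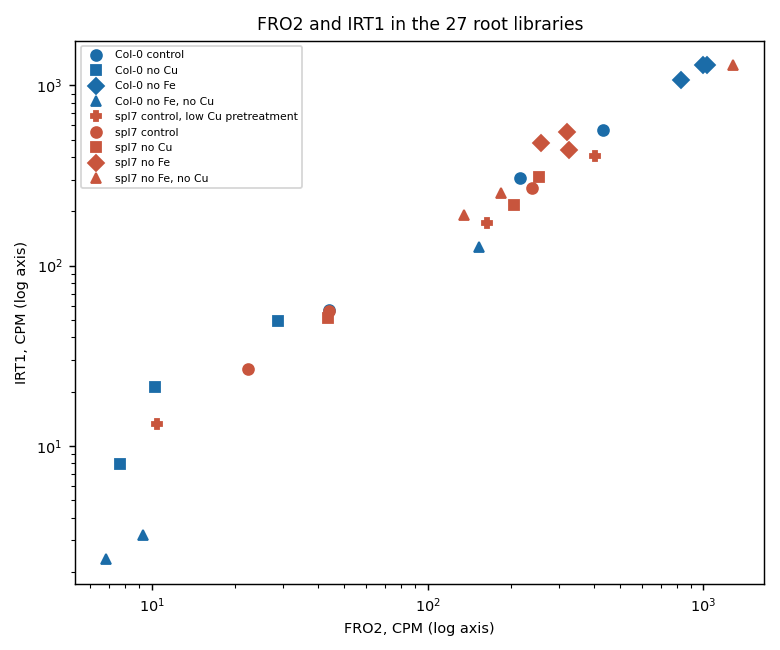
FRO2 against IRT1 in the 27 root libraries, both in CPM on log axes; colour gives the genotype and the symbol gives the treatment. The libraries lie along a band (Spearman rho 0.988) with the iron-free Col-0 libraries and 1 spl7 library free of both metals (FRO2 at 1280 CPM) at the top and Col-0 libraries without copper mostly at the bottom, and libraries of the same group are often far apart.

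FRO3 and FRO8 are the members whose proteins have been placed in mitochondria. With copper present and all libraries in the fit, iron removal raised FRO3 in roots of both genotypes and FRO8 in spl7 roots alone. FRO3 was at 123, 105 and 113 CPM in control Col-0 roots and at 197, 165 and 210 CPM without iron, with no overlap. It rose by 0.75 ± 0.21 (adjusted p = 0.0152), and with FRO4 it made 2 of 6 members called, 1 in each direction, where 20.4% of genes were called. The call of FRO3 was lost without replicate 2 of the control (0.70, adjusted p = 0.0771) or replicate 3 of the iron-free group (0.67, adjusted p = 0.066). FRO3 showed no rise over the control when copper was missing too. With copper absent, iron removal in Col-0 roots gave 0 ± 0.21 for FRO3 (adjusted p = 0.999). For FRO8 it gave -0.88 ± 0.47 (adjusted p = 0.259). FRO3 had 88, 105 and 94.4 CPM free of both metals, all below the iron-free libraries (-0.99 ± 0.21, adjusted p = 0.00428). FRO8 was also lower without both metals than without iron, at 1.05, 1.02 and 1.2 CPM against 4.51, 3.44 and 4.45 CPM (-1.91 ± 0.42, adjusted p = 0.00641). In that comparison 3 members were lower (FRO2, FRO3, FRO8) and 1 higher (FRO4) of 6 tested, where 8.72% of genes were called. FRO8 had 2.12, 2.57 and 2.08 CPM in the Col-0 control, and neither single change from it passed (0.87 ± 0.38 without iron, -1.04 ± 0.45 without both). With all libraries in the fit, the test of iron by copper passed neither for FRO3 (-0.75 ± 0.29, adjusted p = 0.138) nor for FRO8 (-1.75 ± 0.6, adjusted p = 0.0999). A dependence of their iron response on copper is thus not shown by that fit.

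Iron-free spl7 roots had FRO3 at 290, 253 and 131 CPM, against 88.7, 117 and 98.7 in the spl7 control. FRO8 had 11.6, 9.38 and 2.45 CPM there, against 2.99, 1.94 and 2.57. Replicate 3 was the lowest library for both genes and lay within the control range for FRO8. With all libraries the changes were 1.15 ± 0.21 for FRO3 (adjusted p = 0.00118) and 1.65 ± 0.37 for FRO8 (adjusted p = 0.0051), and with FRO4 they made 3 of 6 members called, where 13.1% of genes were. Without replicate 3 the changes were 1.41 and 2.05, and the number of genes called rose from 2684 to 8204. FRO8 was not called without replicate 1 of the iron-free group (1.25, adjusted p = 0.0704). In a fit of these 2 groups alone, without the other root libraries to estimate the spread, no gene was called at all and FRO3, FRO4 and FRO8 had adjusted p values of 0.253, 0.219 and 0.292. Without replicate 3 of iron-free spl7 in the fit, FRO8 was called as well in iron-free Col-0 roots, and FRO3 and FRO8 were called between the iron-free genotypes and in the differences by genotype and by copper (3 members each with FRO4, and 2 between iron-free genotypes).

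For 5 further root comparisons no member was called, among them Col-0 free of both metals against its control (4.69% of genes called; FRO8 alone had an unadjusted p below 0.05) and spl7 free of both metals against its control (0.855%; FRO4 alone, which the DESeq2 Wald test called). The others were the low-copper against the main spl7 control (4.36%; FRO6 alone), iron-free spl7 against iron-free Col-0 (10.7%; FRO4 and FRO8) and the difference in copper response (0.044%; FRO2 alone). In these last 3 the DESeq2 Wald test called none.

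Genes that work beside the reductases were followed from lists of their roles. Copper removal from Col-0 raised 5 of 8 tested copper uptake and SPL7-linked genes: CITF1, a bHLH factor of copper uptake (3.77 ± 0.46), the superoxide dismutase gene FSD1 (2.1 ± 0.19), the transporter gene ZIP2 (1.62 ± 0.21), the copper chaperone gene CCH (1.41 ± 0.12) and the transporter gene YSL2 (1.24 ± 0.17). The median over the 8 was 1.52 on the log2 scale, against -0.01 for all genes, of which 0.0733% were called. None of 11 iron uptake genes and none of 12 iron-linked transcription factor genes was called. Iron removal lowered 4 of the 8 copper genes (ZIP2 -3.42 ± 0.25, YSL2, CCH and FSD1 -6.08 ± 0.28) and raised 6 of 11 iron uptake genes, among them IRT2 (4.14 ± 0.84) and the proton pump gene AHA7 (1.31 ± 0.26), where 20.4% of all genes were called. Of 12 transcription factor genes 2 rose (PYE and BHLH34) and 2 fell (BHLH115 and BHLH121). Of the 9 root markers 4 were higher too, the root hair genes COBL9, EXPA7, EXPA18 and LRX1, and the summed level was 493 to 647 CPM in iron-free Col-0 roots and 374 to 473 CPM in the control. Their part in these changes was not tested. Removing copper from iron-free plants lowered 8 of the 11, including IRT1 (-4.78 ± 1.34), and 6 of 12 transcription factor genes, including BHLH39 (-3.22 ± 0.65), BHLH101 (-3.43 ± 0.62) and FIT (-1.07 ± 0.23), while 4 of 8 copper genes were higher (8.72% of all genes called). The direction was the one FRO2, FRO3 and FRO8 took in that comparison for the iron genes, and the one FRO4 took for the copper genes.

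In copper-free roots all 8 tested copper genes were lower in spl7 than in Col-0 (2.49% of all genes called), as FRO4 and FRO5 were. Among them were ZIP2 (log2 difference -5.63 ± 0.27) and COPT2 (-4.75 ± 0.65). SPL7 itself (-1.36 ± 0.08) is also in the 8. It is the gene disrupted in the mutant, so its lower level was given by the genotype and adds nothing to the count. In iron-free spl7 roots, COPT2, which encodes a copper transporter, was the copper gene of 8 that rose (2.58 ± 0.71), beside FRO4. BHLH100 (5.08 ± 1.1), BHLH38 (3.83 ± 0.97) and the iron regulator gene PYE (1.28 ± 0.18) were among 6 of 12 transcription factor genes that rose, and 1, BHLH121, was lower (-0.36 ± 0.11), where 13.1% of all genes were called. Without replicate 3 of iron-free spl7 these values were 2.84 ± 0.73 for COPT2, 5.58 ± 0.91 for BHLH100, 4.23 ± 0.87 for BHLH38, 1.48 ± 0.14 for PYE and -0.59 ± 0.08 for BHLH121, all called. In that fit 39.7% of genes were called, with 2 of 8 copper genes higher and 1 lower, and 6 of 12 transcription factor genes higher and 3 lower. Of the 9 root markers 1 was lower in iron-free spl7 roots with all libraries and 5, the endodermis genes CASP1 to CASP5, without replicate 3. Their part in these changes was not tested.

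By the likeness of their levels over the 27 root libraries, the closest non-members were YSL2 (r = 0.94), CCH (0.927) and FSD1 (0.915) for FRO4, ORG1 (0.957) for FRO3 and PSBQ-2 (0.849), LHCB2.1 and LHCB6, all photosystem genes, for FRO6. FRO4 and FRO5 had an r of 0.83 with each other (Spearman rho 0.7). FRO3 and FRO8 had an r of 0.78 but a rho of only 0.42, so their ranks over the libraries were less alike. FRO2 and FRO3 had an r of 0.67 and a rho of 0.82. FRO5 was above 1 CPM in 3 libraries only, on which its likeness values rest.

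In rosettes the largest response of the family was that of FRO3 to iron removal in spl7. FRO3 had 20.7, 21.4 and 24.5 CPM in the spl7 control and 321, 248 and 246 CPM without iron, a log2 change of 3.62 ± 0.34 (adjusted p = 9.22e-08). In Col-0 the values were 19.5, 37.9 and 16.2 CPM in the control and 79.9, 46.3 and 35.1 CPM without iron, which overlapped, and the change of 1.14 ± 0.32 did not pass (adjusted p = 0.0615). All iron-free spl7 libraries lay above the highest iron-free Col-0 library. FRO3 was higher in spl7 than in Col-0 without iron by 2.35 ± 0.31 (adjusted p = 3.04e-05), and the iron responses differed by 2.48 ± 0.45 (adjusted p = 0.00192).

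When copper was removed as well, FRO3 in spl7 rosettes was at 65.4, 58.2 and 30.5 CPM, above every spl7 control library and far below the iron-free ones (1.21 ± 0.33 against the control, adjusted p = 0.0543; the DESeq2 Wald test called it). In Col-0 it was at 25.7, 26.3 and 24.9 CPM, within the control range and below every iron-free library (-1.06 ± 0.32 against iron-free, adjusted p = 0.0307). The latter call rested on few libraries: it was lost in 5 of 6 fits with a library left out, with adjusted p up to 0.234 and a change of -0.67 without replicate 1 of the iron-free group. It was kept only in the fit without replicate 3 of the iron-free group.

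FRO2 and FRO1 rose with FRO3 in iron-free spl7 rosettes, from much lower levels. FRO2 had 10.5, 9.93 and 7.02 CPM, against 3.52, 3.04 and 3.77 in the spl7 control and 4.01, 2.65 and 2.57 in iron-free Col-0. It rose by 1.41 ± 0.24 (adjusted p = 0.000184), stood 1.58 ± 0.24 above iron-free Col-0 (adjusted p = 0.000151), and its iron responses differed between genotypes by 1.35 ± 0.36 (adjusted p = 0.024). This last call was lost in 4 of 12 fits with a library left out, with adjusted p of 0.0624 to 0.0801 and differences of 1.11 to 1.26: without replicate 1 of the Col-0 control, replicate 2 or 3 of iron-free Col-0, or replicate 1 of iron-free spl7. FRO1 had 5.06, 5.15 and 5.21 CPM, above the 1.76, 3.51 and 1.93 CPM of the spl7 control (1.08 ± 0.36, adjusted p = 0.0269) and the 3.06, 1.54 and 1.29 CPM of iron-free Col-0 (1.41 ± 0.36, adjusted p = 0.00957). The first FRO1 call was lost in 5 of 6 fits with a library left out (adjusted p up to 0.118), all but the one without replicate 2 of the control, and the second without replicate 2 or 3 of iron-free Col-0 (1.28 and 1.17, adjusted p = 0.0522 and 0.0691).

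FRO2 was also high in rosettes of the low-copper spl7 control, at 12.7, 11.2 and 9.52 CPM, while the 7 rosette groups other than this one and iron-free spl7 stayed between 1.84 and 4.28 CPM. It exceeded the Col-0 control after the same pretreatment by 1.94 ± 0.24 (adjusted p = 1.36e-06) and the main spl7 control by 1.70 ± 0.24 (adjusted p = 2.89e-05), with no overlap in either. IRT1, its partner in roots, was at 0.753, 0.673 and 1.3 CPM in the low-copper control rosettes, inside the 0.457 to 1.35 CPM of the Col-0 control. IRT1 did rise in iron-free spl7 rosettes (2.72 ± 0.37, adjusted p = 1.58e-05), to 10.2, 7.7 and 7.67 CPM.

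**Figure D4:**
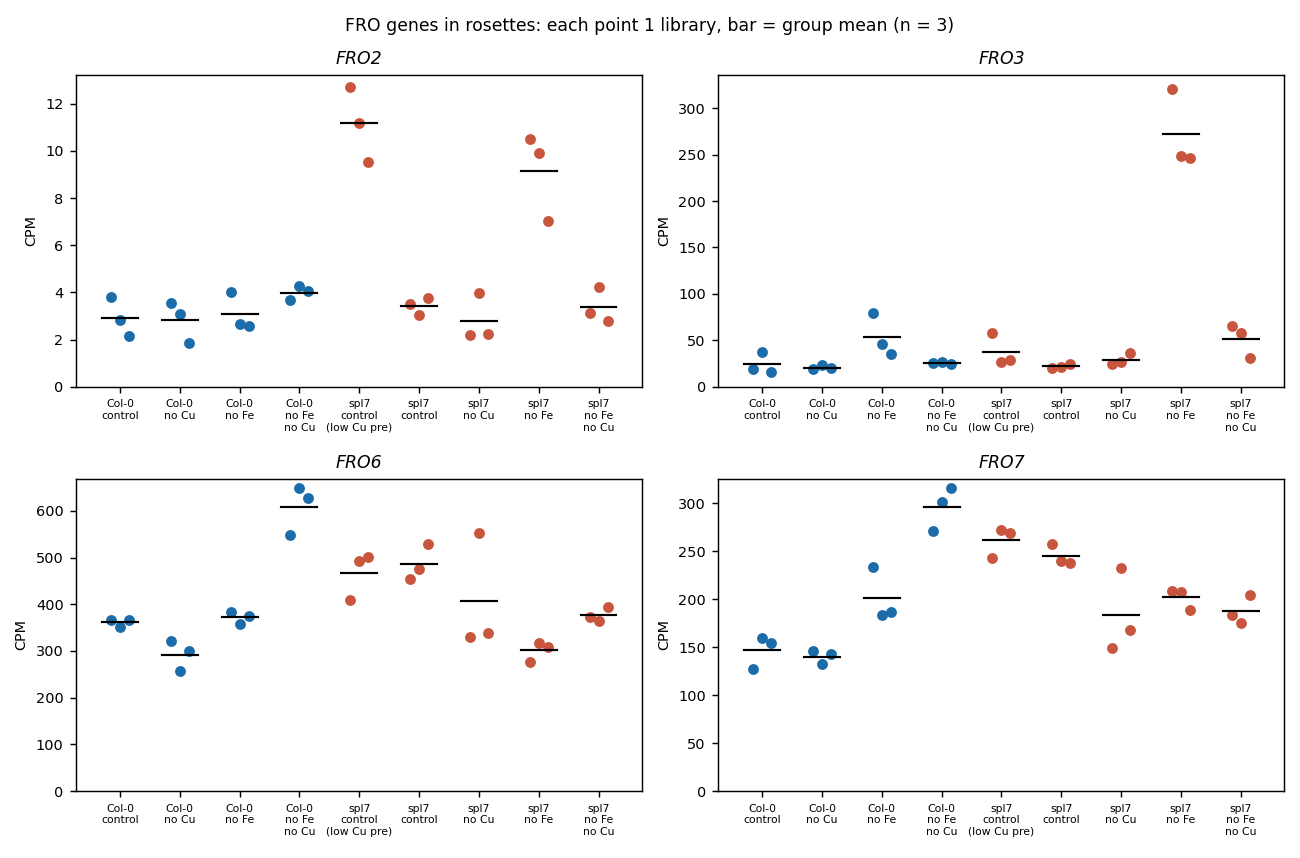
FRO2, FRO3, FRO6 and FRO7 in each of the 27 rosette libraries, in CPM (linear axes from 0), by genotype and treatment; blue is Col-0, red is spl7, points are libraries and bars are means. FRO3 reached 246 to 321 CPM in iron-free spl7, FRO2 stood above 7 CPM in the low-copper control and in iron-free spl7, and FRO6 and FRO7 were highest in Col-0 free of both metals.

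FRO4 and FRO8 went the other way in iron-free spl7 rosettes, as did all 9 leaf markers (9 called lower, median log2 change -0.69), whose part in these changes was not tested. FRO4 had 6.08, 6.24 and 8.02 CPM against 14.1, 13.4 and 13.5 in the spl7 control (-1.01 ± 0.21, adjusted p = 0.00124), without overlap. FRO8 had 77.3, 86.3 and 91.4 CPM against 106, 106 and 108 (-0.33 ± 0.11, adjusted p = 0.0257). On plain library totals, without TMM scaling, its group means were closer, at 95.8 ± 6.11 and 105 ± 1.73 CPM (SD). The TMM factors of the iron-free libraries were 1.16, 1.111 and 1.115. With FRO6, described next, 3 members fell and 3 rose of 7 tested, where 27.4% of genes were called. FRO8 was also lower than in iron-free Col-0 (-0.36 ± 0.11, adjusted p = 0.024), where FRO1, FRO2 and FRO3 were higher, 4 of 7 members and 17.1% of genes. The calls of FRO8 were lost in 4 of 6 and 3 of 6 fits with a library left out (-0.34 to -0.26 and -0.37 to -0.29, adjusted p up to 0.135 and 0.132). FRO4 did not follow copper in rosettes as it did in Col-0 roots. In rosettes all 27 libraries lay between 6.08 and 18.5 CPM and the change on copper removal was -0.04 ± 0.21 in Col-0 and 0.15 ± 0.20 in spl7. FRO5 had 0 to 2 counts per rosette group.

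The neighbours FRO6 and FRO7 rose together in Col-0 rosettes free of both metals. FRO6 had 366, 351 and 367 CPM in the control and 548, 649 and 627 CPM without both metals. FRO7 had 127, 160 and 154 CPM in the control and 271, 301 and 316 CPM without both. Neither gene overlapped between the groups, and the log2 changes were 0.75 ± 0.14 (adjusted p = 0.00109) and 1.01 ± 0.12 (adjusted p = 9.31e-06), the 2 members of 7 called where 7.77% of genes were.

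Removal of 1 metal did not give this. FRO6 had 321, 256 and 300 CPM without copper and 383, 358 and 374 without iron, and FRO7 had 146, 132 and 143 without copper and 234, 183 and 187 without iron. FRO7 without iron lay above every control library, but its change of 0.45 ± 0.12 did not pass (adjusted p = 0.0507; the DESeq2 Wald test called it). Against the iron-free group both genes were higher without both metals (0.71 ± 0.14 and 0.56 ± 0.12), where FRO3 was lower and 12.8% of genes were called. Against the copper-free group they were higher by 1.06 ± 0.14 and 1.08 ± 0.12 (2 of 7 members, 6.18% of genes).

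The test of iron by copper in Col-0 rosettes called FRO6 and FRO7 (1.01 ± 0.19, adjusted p = 0.00259, and 0.62 ± 0.17, adjusted p = 0.0411), 2 of 7 members, where 4.52% of genes were called. The departure of FRO7 was called in only 3 of 12 fits with a library left out (0.56 to 0.75), and was lost without any copper-free library, without replicate 2 or 3 of the control, the iron-free group or the group free of both metals. The summed leaf markers were at 76900 to 83700 CPM in Col-0 rosettes free of both metals and at 58900 to 73000 CPM in the control, none of the 9 markers at 0, and their part in the rise of FRO6 and FRO7 was not tested.

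In spl7 rosettes FRO6 and FRO7 were already high with both metals. Free of both metals the libraries had 365 to 394 CPM of FRO6 and 175 to 204 CPM of FRO7. Neither change from the main control was called, where 2.11% of genes were, so a fall is not shown. Every such library lay below every library of either spl7 control, but how many of all genes separate in this way was not counted. The main spl7 control had FRO6 at 454, 475 and 530 CPM and FRO7 at 257, 240 and 238 CPM, and the low-copper control had 409, 492 and 502 CPM and 243, 272 and 269 CPM. After the same pretreatment they exceeded the Col-0 control by 0.37 ± 0.14 (adjusted p = 0.0301) and 0.83 ± 0.12 (adjusted p = 1.24e-05). With FRO2 these made 3 of 7 members higher, where 42.2% of genes were called, so the count of members is close to that of all genes. The call of FRO6 was lost in 5 of 6 fits with a library left out (0.32 to 0.38, adjusted p up to 0.105), all but the one without replicate 1 of the low-copper control. Between the 2 spl7 controls FRO2 alone of 7 members was called, against 23.9% of genes.

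Iron removal lowered FRO6 in spl7 rosettes to 277, 317 and 308 CPM (-0.69 ± 0.14, adjusted p = 0.000673), while FRO7 was at 209, 207 and 189 CPM (-0.28 ± 0.12, adjusted p = 0.0924). The summed leaf markers were at their lowest there, 34700 to 43100 CPM against 58800 to 69000 in the spl7 control, and their part in the fall was not tested. The iron responses of the genotypes differed by -0.73 ± 0.19 for FRO6 (adjusted p = 0.0207) and -0.73 ± 0.17 for FRO7 (adjusted p = 0.0124), which with FRO2 and FRO3 made 4 of 7 members, 8.46% of genes. For FRO6 the call was lost without replicate 3 of the spl7 control (-0.66, adjusted p = 0.0579) or replicate 1 of iron-free spl7 (-0.67, adjusted p = 0.0598).

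Free of both metals, spl7 had FRO6 at 372, 365 and 394 CPM and FRO7 at 184, 175 and 204 CPM, below every Col-0 library of that treatment (-0.69 ± 0.14 and -0.66 ± 0.12, adjusted p = 0.00284 and 0.00189; 2 of 7 members, 8.91% of genes). The direction between genotypes was the opposite in copper-free rosettes, where both were higher in spl7 (0.47 ± 0.14, adjusted p = 0.0231, and 0.38 ± 0.12, adjusted p = 0.0406; 2 of 7 members, 14.4% of genes). Copper-free spl7 had 330, 552 and 338 CPM of FRO6 and 149, 232 and 168 CPM of FRO7, and without replicate 2 the differences were 0.18 and 0.17 (adjusted p = 0.335 and 0.436). Both calls were also lost without any 1 of the 3 copper-free Col-0 libraries (0.39 to 0.54 and 0.34 to 0.40, adjusted p up to 0.0917 and 0.115).

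**Figure D5:**
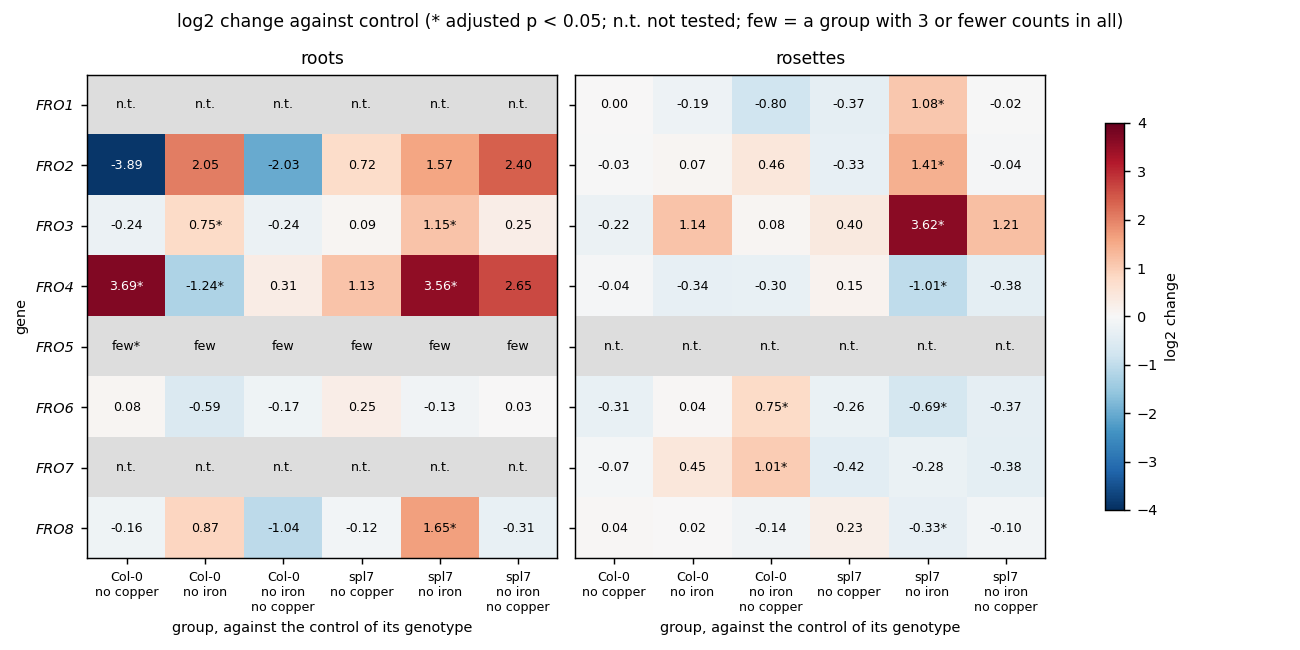
log2 change of each FRO gene against the control of its own genotype, in roots and rosettes; red is higher, blue is lower, an asterisk marks an adjusted p below 0.05, n.t. marks genes below the filter on low counts and few marks comparisons with a group of 3 or fewer counts in all. The calls lie mostly in iron-free spl7 (3.62 for FRO3 in rosettes), and the copper calls are FRO4 and FRO5 in Col-0 roots.

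No member was called on copper removal in rosettes, in Col-0 (0.02% of 20015 genes called; FRO6 alone had an unadjusted p below 0.05, and the DESeq2 Wald test called none) or in spl7 (1.12%; FRO7 and FRO8 had one, and DESeq2 called FRO7). The same held for iron removal in Col-0 (2.41%; FRO3 and FRO7, of which DESeq2 called FRO7), for removal of both metals in spl7 (2.11%; FRO3, FRO6 and FRO7, of which DESeq2 called FRO3) and for the difference in copper response (0.03%; none, and none in DESeq2).

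The iron-linked transcription factor genes were followed in rosettes too. In iron-free spl7, 8 of 12 were higher and 2 lower, with a median log2 change of 1.60, where 27.4% of all genes were called. BHLH100, a bHLH factor of the iron deficiency response, had no count in the 3 spl7 control libraries and 229, 180 and 164 CPM without iron, and BHLH38 had 328, 256 and 211 CPM. The iron regulator gene PYE rose by 2.44 ± 0.33 and the ubiquitin ligase gene BTS by 3.32 ± 0.41. Over the 27 rosette libraries BHLH100 was the gene most like FRO3 (r = 0.991), followed by AT1G47395 (0.982) and AT1G47400 (0.978). Of 9 genes of organelle iron transport and storage, 5 fell in iron-free spl7, the ferritin genes FER1 (-6.54 ± 0.97), FER2 (-1 ± 0.36), FER3 (-2.76 ± 0.48) and FER4 (-4.36 ± 0.49) and the transporter gene YSL6 (-0.22 ± 0.08). Of the other rosette members, FRO6 and FRO7 had an r of 0.81 with each other, and the genes most like them were AT4G12980 (0.96) for FRO6 and VTC2 (0.917), which encodes an enzyme of ascorbate synthesis, for FRO7.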

How the data were processed

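The deposited values were whole-number read counts per gene for 54 libraries. Per the submitters' processing notes these counts came from Bowtie alignment to TAIR10 and HTSeq, with versions, strand setting and treatment of multiply mapped reads not given in the sources used here. Of 33610 gene identifiers, 28932 matched RefSeq (TAIR10.1), used for names, positions and sequences. No 2 libraries were identical.

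The 27 libraries of each organ were fitted together, and all 54 for the organ comparison (R 4.3.3, edgeR 4.0.16 quasi-likelihood test, 1 mean per group), after filterByExpr (minimum count 10, minimum total 15) and TMM scaling. The filter left 20462 genes in roots, 20015 in rosettes and 22078 in all. Standard errors were taken from the F statistic, as |log2 change| divided by its square root. CPM used TMM-scaled library totals within the organ, and levels per kb used annotated exon length in place of the planned coding length, because HTSeq counts can include UTRs. For a group at 0 counts, folds were set against 3 counts per library; other count ratios have 95% exact intervals. Likeness is Pearson r on log2(CPM + 1) among genes averaging at least 1 CPM, and the 3 closest non-members were eligible for naming. All 8 members, SPL7 and called members of the partner lists were eligible in every comparison (33 in all).

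The members, lists and tests were chosen with earlier results of these data known. Alternatives were DESeq2 1.42.0 (its size factors, and its Wald test), no low-count filter, a replicate block, the compared groups alone and leaving out each library. For group levels the alternative was CPM on plain library totals. The fit was also run on simulated data with the same spread for every gene and no library standing apart. Changes were planted there only in genes that passed the filter. That run does not cover genes that vary within a group as FRO2 did in roots.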

Additional observations from a re-analysis of the deposited data

Results flagged for a closer look

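For 8 member results a test of the difference between 2 responses passed the threshold over all genes (edgeR, adjusted p below 0.05). In roots the copper response of FRO4 in Col-0 differed with and without iron (-2.13 ± 0.45, adjusted p = 0.0121): copper removal raised it by 3.69 ± 0.30 with iron and by 1.55 ± 0.33 without. The iron response of FRO4 differed between genotypes (4.80 ± 0.79, adjusted p = 0.00111): it fell in Col-0 and rose in spl7, in all 3 libraries of each iron-free group.

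In rosettes FRO6 (1.01 ± 0.19, adjusted p = 0.00259) and FRO7 (0.62 ± 0.17, adjusted p = 0.0411) departed upward from the sum of the 2 single removals in Col-0, in all 3 libraries free of both metals. The call of FRO7 was lost in 9 of 12 fits with a library left out, and with the replicate block. The iron responses of the genotypes differed for FRO2 (1.35 ± 0.36, adjusted p = 0.024) and FRO3 (2.48 ± 0.45, adjusted p = 0.00192), which were higher in all 3 iron-free spl7 libraries than in any iron-free Col-0 library, and for FRO6 (-0.73 ± 0.19, adjusted p = 0.0207) and FRO7 (-0.73 ± 0.17, adjusted p = 0.0124). The calls of these genotype differences for FRO2 and FRO6 were lost in 4 and 2 of 12 fits with a library left out. Each difference between genotypes is also one between copper pretreatments, and the 2 cannot be told apart.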

How the results depend on the processing

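No called log2 change of a member reversed its sign under any alternative run. Of the 57 called changes, all 57 held with DESeq2 size factors, 53 with the DESeq2 Wald test (which gave no adjusted p for FRO4 and FRO5 in copper-free Col-0 roots, and did not call FRO5 free of both metals against copper-free or in spl7 against Col-0 without copper), 56 without the low-count filter and 52 with the compared groups alone. Leaving out libraries ended a call in 58 of 405 pairs of a called change and a left-out library, over 16 results. With CPM on plain library totals, 8 of 144 group levels of members moved by more than their SD.

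The replicate block kept 54 of 57. It ended the calls of FRO2 free of both metals against iron-free in Col-0 roots (-4.09, adjusted p = 0.0634), of FRO7 for iron by copper (0.62, adjusted p = 0.052) and of FRO7 between genotypes in copper-free rosettes (0.38, adjusted p = 0.0506), so that the member count was 1 in place of 2 in the last 2 comparisons. Same-numbered libraries showed no general likeness: in 2 of 36 pairs of root groups and 1 of 36 pairs of rosette groups all same-numbered deviations correlated above 0.1 (mean correlations -0.01 and 0.003). With so few libraries in a group this check cannot settle whether the replicate numbers pair the samples. For all genes the block moved 1 count by over 1.5 times, that of the difference in root copper response, from 9 to 5.

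Counts of members called moved by over 1.5 times as follows; the cause was not tested. With the DESeq2 Wald test, copper-free Col-0 roots had 1 call (FRO2), roots free of both metals against copper-free 1 (FRO4), spl7 roots free of both metals 1 (FRO4), and rosettes of iron-free Col-0 (FRO7), copper-free spl7 (FRO7) and spl7 free of both metals (FRO3) 1 each. Without the filter, iron-free Col-0 rosettes had 2 (FRO3, FRO7), spl7 rosettes free of both metals 1 (FRO3) and the genotypes in copper-free rosettes 1 (FRO6). With the compared groups alone, roots had 4 in iron-free Col-0 (FRO2 and FRO8 added), 1 free of both metals (FRO8), 3 for iron by copper (FRO3, FRO8 added), 0 in iron-free spl7, 1 in spl7 free of both metals (FRO4) and 1 between iron-free genotypes (FRO2), and rosettes had 3 in spl7 free of both metals (FRO3, FRO6, FRO7) and 0 between copper-free genotypes.

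With a library left out, root counts ran from 0 to 3 for iron-free Col-0, from 0 to 1 free of both metals, from 1 to 3 for iron by copper, from 0 to 2 between iron-free genotypes and from 1 to 3 for the difference in iron response. Each of these upper values came without replicate 3 of iron-free spl7 (FRO8 added in all 5), and the 0 for iron-free Col-0 without replicate 2 of the control. Rosette counts ran from 0 to 1 for iron-free Col-0, 1 to 2 for iron by copper, 0 to 2 for copper-free spl7, 0 to 1 for spl7 free of both metals, 0 to 2 between copper-free and 2 to 4 between iron-free genotypes, and 2 to 5 for the difference in iron response.

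The number of all genes called moved by over 1.5 times in 27 of 165 pairs of a comparison and an alternative other than leaving out a library. With the DESeq2 Wald test root counts went from 15 to 190 (copper-free Col-0), 960 to 1473 (free of both), 591 to 1135 (iron by copper), 43 to 169 and 175 to 291 (spl7, copper-free and free of both), 509 to 948 and 73 to 222 (genotypes, same treatments) and 9 to 128 (difference in copper response), and rosette counts from 4 to 37, 225 to 491 (copper-free Col-0 and spl7) and 6 to 70 (difference in copper response). With the compared groups alone root counts went from 960 to 2322, 1784 to 4350 (free of both metals against control and iron-free), 591 to 2183, 2684 to 0 and 175 to 783 (spl7, iron-free and free of both), 892 to 1356 (spl7 controls), 2196 to 8 and 73 to 1327 (genotypes, iron-free and free of both), 9 to 24 and 1436 to 300 (differences in copper and iron response). Rosette counts went from 482 to 158 (iron-free Col-0), 225 to 0 and 422 to 807 (spl7, copper-free and free of both), and 2874 to 10 and 1783 to 3050 (genotypes, copper-free and free of both). With a library left out, the count moved that much in 140 of 247 pairs of a comparison and a left-out library.

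Depth limits FRO1, FRO5, FRO6 and FRO7 in roots and FRO5 in rosettes, and FRO4 in spl7 roots with iron, where groups held few counts.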
